A study of Bos taurus with 10 samples.

Results

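The sites described here are CG sites of the bovine autosomes that carried almost no methylation in any of 10 tissues. A site was eligible when it had at least 8 reads in all 10 tissues, and it was a member when its methylation level was 10 % or less in each of them. Of 51227 eligible autosomal CG sites, 24938 were members (48.7 %). The number depended on coverage, with 39190 members (50.9 %) without abomasum, the library with the fewest reads, and 1491 (20.9 %) where 20 reads were needed in all tissues. A site is 1 cytosine on 1 strand, so that a CG can give up to 2 sites. The levels that chose the members are given as descriptions and were not tested. Tests are given for measures that the rule did not use, namely non-CG cytosines nearby and CG sites that were never eligible. Both lie close to sites that the rule sorted and can share reads with them. Read numbers and levels in a tissue held out of the choice are given as descriptions, since the rule rests on reads and levels.

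Methylation was measured by reduced representation bisulphite sequencing (RRBS) in 1 library per tissue, from a Hereford cow and her relatives. The adult tissues were testis from a male and, from females, skeletal muscle, intercaruncular uterus, nucleated blood cells and lactating mammary gland taken on day 90. Juvenile females gave ileum, abomasum, frontal cortex and mammary parenchyma, and a male fetus gave the rumen. The labels tie no library to a single animal, so stage, sex and animal cannot be told apart from the tissue, and no tissue has a replicate check. In RRBS, *MspI* cuts DNA at CCGG whether or not the inner cytosine is methylated, and bisulphite then converts unmethylated cytosines. The level of a site is the share of its reads that still show a cytosine.

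In mammals most CGs are methylated by DNA methyltransferases, which copy the mark to the new strand at replication. CG islands, dense stretches of CGs that often lie at gene starts, are the known exception and commonly stay free of the mark in every cell type. Short *MspI* fragments come mainly from such dense stretches. The genes at the sites below were not looked up, since no annotation of the build used by the files (UMD3.1) was used here.

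The sequences below show what a long run of members looked like. They belong to 4 of the 5 runs with the most members, where a run is a series of members uninterrupted by an eligible non-member and with gaps of at most 100 bp. The letters were rebuilt from the 5-base sequence that the files give around each cytosine of the forward strand of UMD3.1, with 0 letters in conflict. Capitals mark each CG at which at least 1 strand was a member, also where it belongs to a neighbouring run. With the sites inside CCGG left out, which end many runs, the most members in a run were 38 instead of 25.
chr12:20418018-20418069: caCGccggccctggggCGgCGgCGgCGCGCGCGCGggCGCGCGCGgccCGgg
chr1:148776366-148776417: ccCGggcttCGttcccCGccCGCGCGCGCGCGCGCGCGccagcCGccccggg
chr24:50939258-50939308: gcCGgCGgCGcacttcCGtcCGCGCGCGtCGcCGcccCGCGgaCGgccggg
chr12:78403378-78403429: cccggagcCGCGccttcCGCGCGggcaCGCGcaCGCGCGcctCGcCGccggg

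All 4 stretches hold CCGG, the cut site, at or near both ends. The CGs in lower case all lie inside CCGG. The run on chromosome 12 from 20418034 to 20418067 held 25 members at 13 CGs within 34 bp. Over its members and all tissues, 82 of 10552 reads were methylated (0.777 %). The mean level of its members was between 0.393 % in rumen and 1.11 % in frontal cortex. The run on chromosome 1 from 148776368 to 148776410 held 25 members in 43 bp, with 136 of 11031 reads methylated (1.23 %). One eligible site beside it was inside CCGG, was not a member, and had a mean level of 5.29 %. The run on chromosome 24 from 50939260 to 50939302 also held 25 members in 43 bp, with 58 of 9710 reads methylated (0.597 %), and the CCGG site beside it was at 6.51 %. The second run of chromosome 12, from 78403386 to 78403424, held 24 members with 56 of 10033 reads methylated (0.558 %) and lay between CCGG sites with a mean level of 7.81 %. The other run of 25 members, on chromosome 5 from 102003481 to 102003573, spanned 93 bp with a largest gap of 38 bp. In it, 47 of 8947 reads were methylated (0.525 %). The 15 non-CG cytosines beside it had a mean level of 6.38 %, against 0.364 % to 0.508 % beside the other 4 runs. Its letters could not be rebuilt without gaps and are not shown.

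Unmethylated sites stood close together. The distance from a member to the next was 3 bp at the median, and 81.9 % of the distances were at most 10 bp. A distance of 1 bp joins both strands of a CG or, in CGCG, opposite strands of adjoining CGs. For eligible sites that were not members the median was 8 bp, with 57.6 % of distances at most 10 bp. For the 1189 sites at 90 % or above in all tissues (2.32 % of the eligible sites), the median was 24 bp and 38.9 % of distances were at most 10 bp. Only 10.3 % of the distances between members were over 1000 bp.

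The members formed 4266 runs with a median of 5 members and a mean of 5.85. Single members made 1033 of these runs, and 860 runs held 10 or more members. Runs of 10 or more took 48.3 % of all members and runs of 5 or more took 83.7 %. The median span of runs with at least 2 members was 25 bp. A run reaches only as far as eligible sites do, so its span is not the length of an unmethylated stretch. The longest run lay on chromosome 5 from 69892791 to 69892957 and spanned 167 bp with 15 members and a largest gap of 98 bp. The next runs in span were on chromosome 4 from 81806826 to 81806986 (161 bp), on chromosome 24 from 35392439 to 35392590 (152 bp), on chromosome 18 from 56503040 to 56503190 (151 bp) and on chromosome 19 from 19911536 to 19911669 (134 bp). All 5 had a gap of at least 72 bp, so that their span joins separate covered stretches. Their pooled levels were between 0.337 % and 1.05 %.

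Of the 8532 ends of runs, 2917 had no eligible site within 100 bp and 5615 met an eligible non-member. Among these non-members, 2504 (44.6 %) were inside CCGG, with a median level over tissues of 6.58 %. The 3111 outside CCGG had a median of 2.91 %, below the limit of 10 % although each had passed it in at least 1 tissue.

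To see whether neighbouring sites shared one state, eligible sites outside CCGG were joined into clusters with gaps of at most 100 bp. Of the 3889 clusters with 5 or more sites, 1462 (37.6 %) consisted of members throughout, 1390 (35.7 %) held no member, and 1037 (26.7 %) were mixed. In 504 of the mixed clusters more than 80 % of the sites were members. With the sites inside CCGG included, 428 of 4314 clusters (9.92 %) consisted of members throughout.

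**Figure D1:**
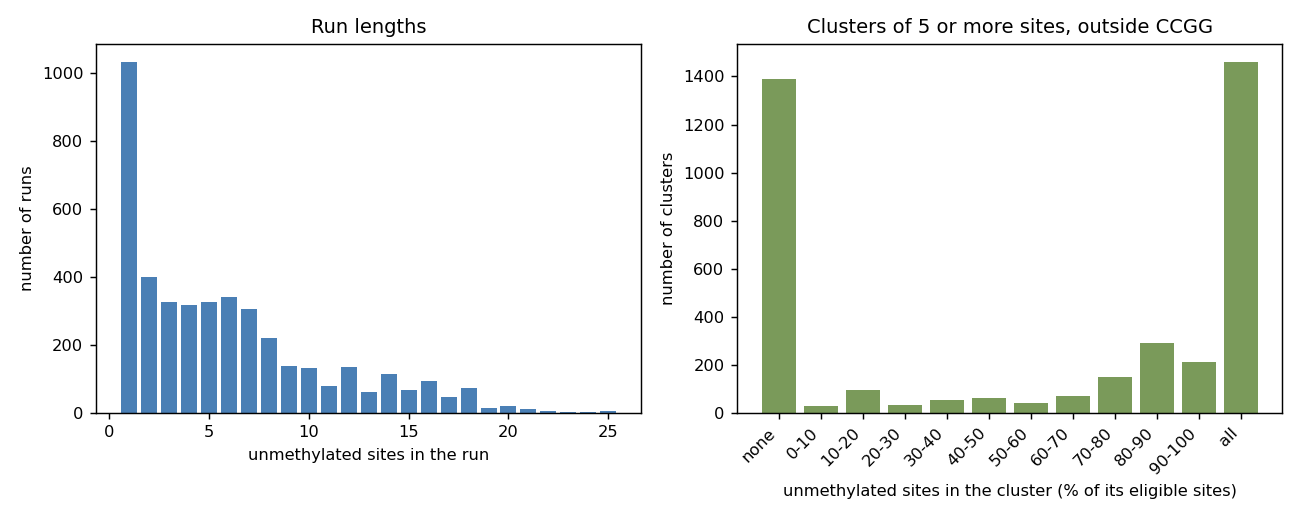
Left, number of runs (y axis) by the number of unmethylated sites in the run (x axis), for all 4266 runs. Right, number of clusters of 5 or more eligible sites outside CCGG (y axis) by the share of their sites that are unmethylated in every tissue (x axis, %), where the outer bars, 1390 and 1462 clusters, are those with no such site and with such sites throughout.

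The strands of a CG usually had the same state. Both strands were eligible at 12912 CGs. Both were members at 7011 of them, neither at 4932, and 1 of the strands at 969 (7.50 %). Members made up 45.8 % of the 23012 eligible sites on the forward strand and 51.1 % of the 28215 on the reverse strand.

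The share of eligible sites that were members differed among the autosomes, from 30.1 % to 59.4 %, with a median of 49.4 %. The lowest shares were on chromosome 29 with 468 of 1557 sites (30.1 %, 95 % Wilson interval 27.8 to 32.4 %), chromosome 27 with 329 of 1039 (31.7 %) and chromosome 8 with 701 of 1856 (37.8 %). The highest were on chromosome 14 with 1012 of 1703 (59.4 %, interval 57.1 to 61.7 %), chromosome 5 with 1277 of 2170 (58.8 %) and chromosome 19 with 1497 of 2661 (56.3 %). Chromosome 19 held the most members of all autosomes and chromosome 28 the fewest, 283. Neighbouring sites are not independent, so the intervals cover counting error only and are too narrow for chromosomes as a whole. When each autosome was divided into 10 parts of equal length, members made up 43.2 % of the eligible sites in the first part and 40.3 % in the last, while the internal parts had between 47.8 % and 57.4 %.

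**Figure D2:**
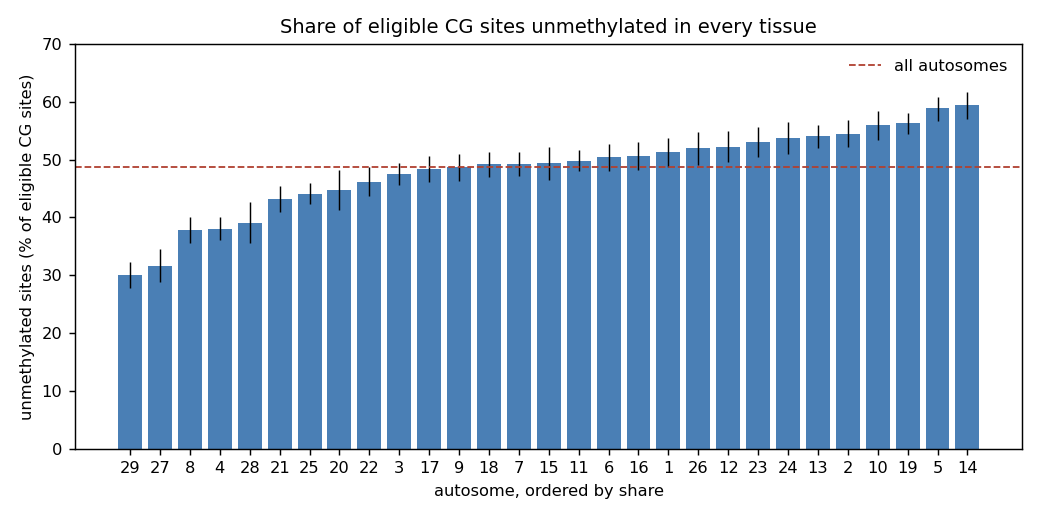
Share of eligible CG sites that were unmethylated in every tissue (y axis, %) on each of the 29 autosomes (x axis, ordered by share), with 95 % Wilson intervals that cover counting error only. Bars run from 30.1 % on chromosome 29 to 59.4 % on chromosome 14, and the dashed line is the share over all autosomes, 48.7 %.

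On chromosome X, which was not part of the set, 109 of 1050 sites met the same rule (10.4 %). Female mammals silence and methylate many CG islands of 1 X chromosome. At or below 10 % in both male tissues, testis and rumen, were 61.6 % of the X sites, and in all 8 female tissues 10.5 %. The autosomal values were 60.8 % and 49.4 %. The number of tissues differs between the sexes, and each tissue alone had 63.7 % of the X sites at or below 10 % in testis, 68.1 % in rumen and between 14.9 % and 23.7 % in the female tissues.

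Among the windows that could be read, the sequence around members differed from that around other sites. Windows of 52 bp around a CG could be used where at least 90 % of the letters were known, which was so for 7586 members (30.4 %) and 7555 other eligible sites (28.7 %). The windows of members had 84.1 % ± 4.70 G and C (SD over sites) and 9.13 ± 1.90 CGs. Those of the other eligible sites had 74.4 % ± 10.4 G and C and 6.39 ± 2.66 CGs. The 295 usable windows around fully methylated sites had 76.5 % ± 7.60 G and C and 6.33 ± 1.88 CGs. Letters are known only close to covered cytosines, so the filter favours windows rich in G and C. The values therefore do not hold for the sites left out. Overlapping windows share letters, and these values are descriptions.

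The bases on either side of the CG went with the share of members. It was highest at GCGC with 65.5 % of 9066 eligible sites, CCGC with 62.9 % of 9609 and GCGG with 62.2 % of 9152. With A or T on both sides it was between 12.2 % at TCGT and 18.8 % at ACGT. The cut site CCGG stood apart from the other motifs with G and C, since 588 of its 6625 eligible sites were members (8.88 %). Sites inside CCGG thus made up 12.9 % of the eligible sites but 2.36 % of the members. Outside CCGG, 24350 of 44602 eligible sites were members (54.6 %). Each CG was read on its own strand with the base before and after it.

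Members inside CCGG had a higher residual level, whose origin was not tested. Their mean level was 3.81 % ± 0.633 (SD, n = 10 tissues), against 0.731 % ± 0.285 for members outside CCGG. Of the 171 members with a mean level over tissues of at least 5 %, 158 were inside CCGG (92.4 %). A closer view came from the 1877 eligible CCGG sites that had members outside CCGG within 50 bp and no eligible non-member outside CCGG there. Their level was 6.29 % ± 0.338 (SD, n = 10 tissues), from 5.77 % in abomasum to 6.98 % in nucleated blood cells. The level of single sites, averaged over tissues, was 6.08 % at the median and between 4.02 % and 8.30 % for the central 80 % of them. Within each tissue, 76.9 % to 87.2 % of these sites were at or below 10 %, but 358 of them (19.1 %) met the limit in all 10 tissues.

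The same contrast was tested at CG sites that the rule never used, those with fewer than 8 reads in at least 1 tissue. Within 50 bp of members, and not of eligible non-members, such sites had a level of 7.04 % ± 0.397 inside CCGG and of 1.15 % ± 0.318 outside CCGG (SD, n = 10 tissues). The difference was 5.89 ± 0.324 points and had the same direction in 10 of 10 tissues (two-sided exact permutation test that flips the sign of tissues, p = 0.00195). The level inside CCGG ranged from 6.42 % in testis to 7.60 % in ileum and that outside from 0.811 % in mammary parenchyma to 1.84 % in abomasum, so that the ranges did not overlap. In abomasum the value inside CCGG rests on 108 sites and in the other tissues on 712 to 824. This comparison was added after the values were seen. Without the other strand of eligible CGs, the levels were 7.06 % ± 0.395 inside CCGG and 1.67 % ± 0.430 outside, a difference of 5.39 ± 0.384 points in 10 of 10 tissues (exact permutation test, p = 0.00195). At sites with at least 20 reads the difference was 4.44 ± 5.54 points (exact permutation test, p = 0.0215). Its spread was thus much wider, and the direction was not the same in all 10 tissues, since that would give p = 0.00195 in this exact permutation test.

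**Figure D3:**
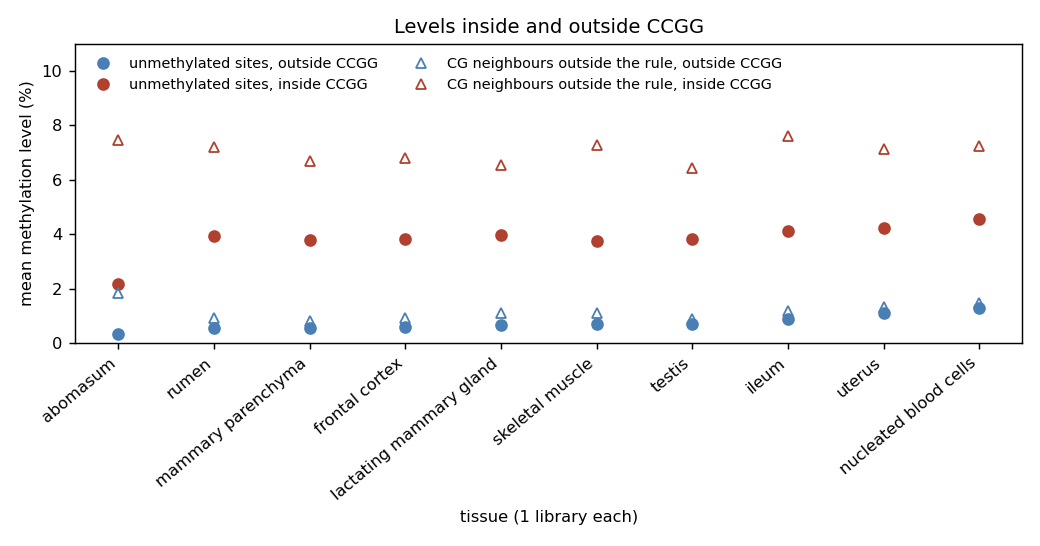
Mean methylation level (y axis, %) in each of the 10 libraries (x axis, ordered by the residual level of all unmethylated sites) for sites inside CCGG (red) and outside (blue). Circles are the unmethylated sites, which the rule bounds, and triangles are CG sites within 50 bp of them that were never eligible, where the levels inside CCGG lie between 6.42 % and 7.60 % and those outside between 0.811 % and 1.84 %.

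The residual level of all members was 0.803 % ± 0.289 (SD, n = 10 tissues). It was 0.381 % in abomasum, 0.617 % in rumen, 0.619 % in mammary parenchyma, 0.672 % in frontal cortex and 0.718 % in lactating mammary gland. It was 0.753 % in skeletal muscle, 0.779 % in testis, 0.956 % in ileum, 1.16 % in uterus and 1.38 % in nucleated blood cells. Abomasum was the lowest and blood cells the highest of these libraries. Pooled over members, 1761 of 336454 reads were methylated in abomasum (0.523 %, 95 % Wilson interval 0.50 to 0.548 %) and 17730 of 1192490 in nucleated blood cells (1.49 %, interval 1.47 to 1.51 %). Reads of a fragment and PCR copies are not independent, so the intervals cover counting error only. Cytosines that bisulphite left unconverted are read as methylated, and the levels were not corrected for this. The study reported incomplete conversion in every library, with unconverted shares of the same order as these residual levels. How much of the residual level they make up was not tested. 

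The low level of abomasum went with low depth. Members had a median of 12 reads there and of 32 to 52 in the remaining libraries. Fewer than 10 reads were found at 26.8 % of the members in abomasum but at most 1.40 % in each other tissue. At such depth a member cannot have any methylated read, since 1 read would pass the limit. At the 1650 members with at least 20 reads in abomasum the level was 0.889 %, above that of 6 tissues at their members with 20 reads, while blood cells were still highest with 1.39 %. The other tissues had 22057 to 24357 such members, so the sites differ and the ranks are not like for like. At members with 20 reads in all tissues, the mean over tissues was 0.994 %, against 0.803 % for all members. Averaged over sites, members had fewer reads than the other eligible sites in 10 of 10 tissues, with a difference of -0.28 ± 0.20 on the log2 scale or a ratio of 0.824. The rule itself uses reads, both as a minimum and through the step that 1 read makes in a level, so this difference was not read as a test. The difference ranged from -0.77 in abomasum to -0.015 in testis, and was -0.15 without abomasum.

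No methylated read was found in any tissue at 3887 members (15.6 %), of which 18 were inside CCGG. These sites had a median of 327 reads over the 10 tissues, against 374 for all members. The most reads without a methylated one were at chromosome 27, position 13339807 on the forward strand, with 0 of 1312 reads, which allows a level of up to 0.229 % at 3 counts. It was followed by chromosome 20, position 22297272 on the reverse strand, with 0 of 704 reads (up to 0.426 %). Both sites on chromosome 19, positions 50611810 and 50611787 on the forward strand, had 0 of 666 and 0 of 665 reads (up to 0.450 and 0.451 %). The last of the 5, on chromosome 20 at position 22434844 on the reverse strand, had 0 of 661 reads (up to 0.454 %). In abomasum these 5 sites had 20 to 37 reads, so that in this tissue alone levels of up to 8.11 to 15.0 % remain possible.

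Members numbered 18603 with the level limit set to a fraction of 0.05 and 30477 with 0.20. Members with a highest level above 9 % numbered 1189, with a mean level over tissues of 2.79 %, and 21.4 % of them were inside CCGG. The sites just outside, with a highest level above 10 and up to 11 %, numbered 590, with a mean level of 3.76 %, and 37.8 % of them were inside CCGG. Levels move in steps: 1 methylated read in 10 or 11 falls just inside, while no single methylated read falls just outside. The counts on either side and their CCGG shares are thus not directly comparable. Of the eligible sites 16522 (32.3 %) were above 10 % in every tissue. Each number of tissues from 1 to 8 at or below 10 % accounted for 0.750 % to 3.59 % of the sites, and 9 tissues for 6.63 %.

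To describe a tissue that had no part in the choice, sites were chosen by 9 tissues and read in the one left out. Of the sites at or below 10 % in the other 9 tissues, 98.7 % ± 1.16 (SD, n = 10 tissues) were also at or below 10 % in the tissue held out, against 25.1 % ± 3.87 of the remaining eligible sites. The difference was 73.6 ± 2.98 points. The second group holds the sites that had failed the limit elsewhere, so a large part of this difference follows from the choice, and no test is given. The share was lowest in nucleated blood cells with 96.0 % and abomasum with 97.2 %, and the remaining 8 libraries had 98.4 % to 99.5 %. Over all eligible sites the share at or below 10 % was also lowest in nucleated blood cells with 57.2 %, followed by uterus with 59.1 % and abomasum with 60.4 %.

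A single tissue above 10 % kept 3398 sites out of the set. Blood cells were that tissue at 1033 sites and abomasum at 716, followed by uterus at 395 and skeletal muscle at 299. The other 6 tissues accounted for 117 to 198 sites each. These excesses were small, since the median level in the tissue concerned was between 11.9 % and 13.3 %. Over all eligible sites, the share at or below 10 % was also lowest in blood cells, with 57.2 %. It was 59.1 % in uterus, 60.4 % in abomasum and 61.6 % in skeletal muscle, and from 60.5 % in ileum to 63.8 % in rumen for the others. The order of the tissues is thus partly that of all eligible sites. The sites of blood cells had a median of 43 reads and 10.6 % of them were inside CCGG, while those of abomasum had a median of 9 reads, where 1 methylated read passes the limit. Of the 3398 sites, 501 were at 20 % or above in the tissue concerned and 40 at 50 % or above. The 40 sites were found in testis (12), abomasum (10), skeletal muscle (9), frontal cortex (8) and lactating mammary gland (1). They formed 2 groups of neighbouring sites in testis, 5 in abomasum, 4 in skeletal muscle, 2 in frontal cortex and 1 in lactating mammary gland. The counts of sites are thus not counts of separate places.

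By level, with at least 20 reads, the sites that set a single library apart were as follows. On chromosome 22, position 59714320 on the reverse strand, the lactating mammary gland had 52 of 52 reads methylated, while the other 9 tissues, with at least 201 reads each, were between 1.49 % and 6.71 %. This site was inside CCGG and had no member within 50 bp. In testis, 27 of 37 reads were methylated on chromosome 22 at position 60053773 (73.0 %, interval 57.0 to 84.6 %), with at most 4.17 % elsewhere. In frontal cortex, 27 of 37 reads were methylated on chromosome 10 at position 81676726, with at most 2.08 % elsewhere. Skeletal muscle had 16 of 22 reads methylated on chromosome 9 at position 105515485, with at most 3.33 % elsewhere. Abomasum had 10 of 20 reads methylated on chromosome 3 at position 1035561, with at most 2.94 % elsewhere. These 5 sites had at most 1 member within 50 bp, so they lay outside the long runs. In the other 5 tissues the highest such levels were 41.2 % in nucleated blood cells on chromosome 4 at position 120673698, 32.8 % in ileum on chromosome 4 at position 75385224, 28.6 % in uterus on chromosome 17 at position 71005251, 28.3 % in rumen on chromosome 13 at position 70071530 and 21.2 % in mammary parenchyma on chromosome 14 at position 65415003.

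The surroundings of members were also low at CG sites that the rule never used. Within 50 bp of members, and not of eligible non-members, never-eligible CG sites had a level of 2.38 % ± 0.223, against 63.3 % ± 4.98 near eligible non-members (SD, n = 10 tissues). The difference was -60.9 ± 4.79 points, in 10 of 10 tissues (exact permutation test, p = 0.00195). Both groups were formed by the levels of eligible sites beside them, which can share their reads. The study also reported high correlations between adjacent CGs, so this direction was foreseeable. The p thus states only that the difference recurred across libraries. Many of the never-eligible sites were the other strand of an eligible CG. Without these the level near members was 3.81 % ± 0.624, against 61.3 % ± 5.60 near non-members (exact permutation test, p = 0.00195), and with at least 20 reads at the neighbour it was 4.01 %. With all never-eligible sites, near members testis was lowest with 2.07 % and nucleated blood cells highest with 2.72 %, on 1134 to 3758 sites.

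With distance from the nearest member, the level of never-eligible sites outside CCGG stayed low up to 500 bp and then rose. It was 1.13 % ± 0.562 at 1 bp, on the opposite strand of the same CG or of an adjoining one, and between 3.52 % and 4.38 % in each bin from 2 to 500 bp. It was 10.5 % ± 3.04 at 501 to 1000 bp, 24.9 % ± 5.34 at 1001 to 2000 bp and 41.3 % ± 6.36 at 2001 to 5000 bp. Beyond this, from 5001 to 20000 bp, it was 48.3 % ± 4.15. The sites differ from bin to bin and, unlike those above, may also lie beside eligible non-members.

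**Figure D4:**
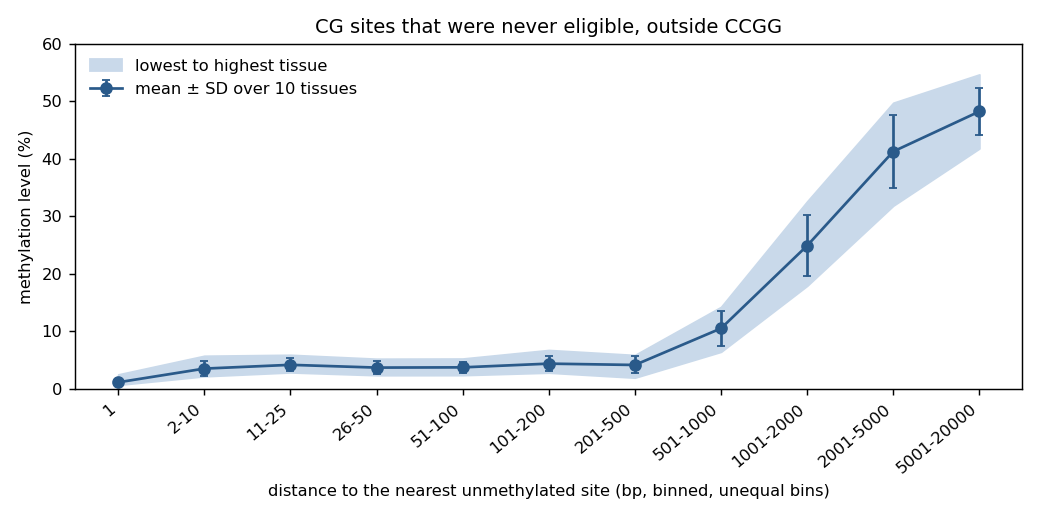
Mean methylation level (y axis, %) of CG sites outside CCGG that were never eligible, by their distance to the nearest unmethylated site (x axis, bp, in unequal bins). Points and bars are the mean ± SD over 10 tissues and the band runs from the lowest to the highest tissue, with levels from 1.13 % to 4.38 % up to 500 bp and 48.3 % in the last bin.

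Non-CG cytosines, which mammalian somatic cells methylate rarely, had no part in the rule. Close to a member they can share its reads, so part of a difference may follow from the choice of members, which was not tested. Within 50 bp of members, and not of eligible non-members, their level was 0.983 % ± 0.119, against 1.64 % ± 0.0999 near eligible non-members (SD, n = 10 tissues). The difference was -0.656 ± 0.115 points, in 10 of 10 tissues (exact permutation test, p = 0.00195). Near members the level was between 0.676 % in abomasum and 1.11 % in ileum, and near non-members between 1.5 % in mammary parenchyma and 1.81 % in ileum, so that the ranges did not overlap. The values rest on 8048 to 12391 cytosines per tissue near members. The levels include cytosines left unconverted by bisulphite, and the study advised caution with its non-CG levels for that reason. Against cytosines near fully methylated sites, with 1.75 % ± 0.101, the difference was -0.770 ± 0.0868 points, again in 10 of 10 tissues (exact permutation test, p = 0.00195).

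A few cytosines made up much of the non-CG level. Of the 6575 non-CG cytosines near members that were covered in all 10 tissues, 96.8 % were at or below 10 % in each tissue, while 23 were at 50 % or above in each. Of these 23, 17 were CHH and 14 had the bases CCC. Among all 6575 cytosines, 3539 were CHH (53.8 %) and 1490 had CCC (22.7 %). Without cytosines at 50 % or above in the tissue, the level was 0.451 % ± 0.0448 near members and 0.948 % ± 0.0812 near non-members, a difference of -0.497 points in the same direction in 10 of 10 tissues (exact permutation test, p = 0.00195).

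CHH sites near members had a level of 1.24 % ± 0.187 and CHG sites one of 0.662 % ± 0.0614, so that CHG was lower by -0.577 ± 0.168 points in 10 of 10 tissues (exact permutation test, p = 0.00195). This difference was lost without the cytosines at 50 % or above, where CHG sites had 0.457 % ± 0.0433 and CHH sites 0.446 % ± 0.0476 and the direction turned to 0.0109 points (exact permutation test, p = 0.0957). By the cytosine and its next 2 bases, CCC had the highest level near members with 2.13 % ± 0.401, and 0.435 % ± 0.0605 without the high cytosines. The other combinations had between 0.387 % at CCA and 0.947 % at CAC. Without the high cytosines CAC had the highest level, 0.775 % ± 0.0993 (SD, n = 10 tissues).

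**Figure D5:**
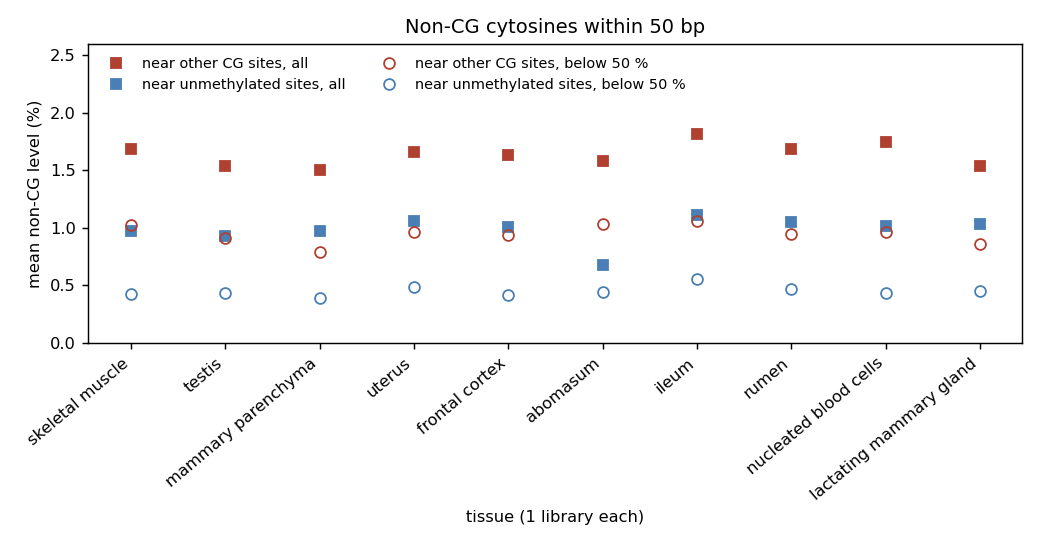
Mean level of non-CG cytosines (y axis, %) in each of the 10 libraries (x axis) within 50 bp of unmethylated CG sites (blue) and of other eligible CG sites (red). Squares are all cytosines and open circles those below 50 % in the library, and in each library the blue symbol lies below the red one of the same shape.

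The tissues did not have the same order for CG and non-CG residues. Nucleated blood cells had the highest level at members outside CCGG, 1.30 %, but 0.430 % at non-CG cytosines below 50 % nearby, where the range over tissues was 0.394 % to 0.555 %. Abomasum had the lowest level at members outside CCGG, 0.338 %, and 0.439 % at these non-CG cytosines. Over the 10 libraries, Pearson's r of both levels was 0.292 and Spearman's rho 0.236, and r was 0.592 without blood cells and uterus, the tissues farthest from the median CG level. Each pair of levels shares a library, its bisulphite conversion and its depth, so r is a description.

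In all, 7 comparisons were computed over the 10 tissues, of which the 5 on measures outside the rule are given with a p. Each of these exact tests gave p = 0.00195, the smallest that 10 tissues allow, and adjustment by Benjamini-Hochberg over the 7 left this value as it was. With 1 library per tissue, these tests ask whether a difference between kinds of sites recurs across libraries, and not whether tissues differ. The cytosines tested lay near sites that the rule sorted and can share reads with them.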

How the data were processed

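RRBS data of 10 bovine tissues, 1 library each, were grouped by the tissue in the labels. Sex and stage come from the study's sample list. Per the study's methods, adapters and low-quality bases were removed, a pipeline built on SOAPaligner placed reads on UMD3.1 in a 3-letter alphabet, and unique hits were kept. The authors deposited cytosines with at least 8 reads. The deposited read count per cytosine is not normalized and appears capped at 65535. The deposited methylation level is a fraction, methylated over all reads. The authors also deposited a p-value, its FDR and a further read number per cytosine that the sources used here do not explain, and none of these was used. Level times reads was whole (tolerance 1e-06) at every cytosine and gave the methylated reads. The level of a group of sites is the unweighted mean of its sites.

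Members and lists were chosen with earlier results of these data known. Named sites follow a rule set with the tests, namely the 5 runs with the most members (ties to the shorter span), the 5 longest runs, the 5 members with the most reads and none methylated, the 3 autosomes at either end, and 1 site per tissue that was above 10 % there alone. The comparison inside against outside CCGG, the alternatives without CCGG and the omission of blood cells were chosen after seeing the data. Differences between kinds of sites were tested over tissues by exact sign-flip permutation, two-sided, with Benjamini-Hochberg adjustment, and no p is given for read numbers and the tissue held out, which rest on values the rule used. Intervals of shares of reads or sites were calculated by Wilson's method at 95 % and hold counting error alone, since PCR copies were not told apart. Alternatives changed the level limit, read minimum, window, gap, weighting, strands and tissues. Code was tested on simulated data. Depth per site limits a level: at 8 reads it moves in steps of 1 read. Python 3.11.15, NumPy 2.4.6, pandas 2.3.3, SciPy 1.17.1 and matplotlib 3.10.9 were used. The gene table at hand is of another assembly, so genes were not assigned and the planned counts over gene lists were not run.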

Additional observations from a re-analysis of the deposited data

Results flagged for a closer look

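Values that stood apart from the other 9 tissues were looked for in 21 sets of 10 values by Dixon's ratio. It divides the gap to the nearest tissue by the range, and the cut-off was that of the 95 % level. Read numbers and levels of members rest on values that the rule used, so their flags are descriptions and not tests. Chance alone marks about 1 in 20 such sets, and the sets share libraries. Abomasum stood apart as the lowest in 7 sets, of which 1 repeats another. Its median number of reads at members was 12, with 32 in the next tissue. Its mean log2 number of reads was 3.59 at members and 4.36 at other eligible sites. Members inside CCGG had a level of 2.15 % in abomasum, with 3.76 % in the next tissue. At 26.8 % of all members abomasum had fewer than 10 reads, where the rule allows no methylated read. Non-CG cytosines near members had 0.676 % in abomasum, the value used in both comparisons of non-CG levels, with 0.927 % in the next tissue, and CHH sites there had 0.727 %, with 1.20 % in the next. Testis stood apart once, with a level of 51.9 % at never-eligible CG sites near eligible non-members, where the next tissue had 61.4 %.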

How the results depend on the processing

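For 10 results, 63 alternatives were computed, of which 59 kept the direction and the side of 0.05, or a count within 1.5 times and a level within 1 SD. The number of members was 24938. It was 3887 where no methylated read was allowed in any tissue, 1491 with at least 20 reads in all tissues, and 39190 without abomasum, which had the fewest reads. The last of these raised the eligible sites with it, so that members were 50.9 % of them. With 20 reads they were 20.9 %. Without non-CG cytosines at 50 % or above, the difference of CHG from CHH near members was reversed, to 0.0109 points (exact permutation test, p = 0.0957), and the cause was not tested. The residual level ranged from 0.731 % without CCGG to 0.994 % at 20 reads. No paired analysis was possible because each tissue has 1 library and the labels carry no replicate numbers to pair libraries by, which is apart from the tests of differences within a library. Alternatives without CCGG, all those of the CCGG comparison and the omission of blood cells were chosen after seeing the data. No library has a replicate, and at 8 reads a level moves in steps of 1 read.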
